A study of Homo sapiens with 14 samples.

Results

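The genes described here are 10 members of the BCL2 family, the regulators of the mitochondrial route to apoptosis. They were chosen by name, as the genes that senolytic drugs act on and their partners. No measured value enters that rule, though earlier results of these data were known when it was set. They are 10 of the 60683 gene identifiers counted in each library. BCL2, BCL2L1 (BCL-xL), BCL2L2 (BCL-W), MCL1 and BCL2A1 encode the 5 survival proteins, BAX and BAK1 the 2 effectors, and BBC3 (PUMA), PMAIP1 (NOXA) and BCL2L11 (BIM) 3 proteins that carry only the BH3 domain. The effectors open pores in the outer mitochondrial membrane and release cytochrome c, which starts the caspase cascade. The survival proteins hold the effectors and the BH3-only proteins in check, and BH3-only proteins are made or switched on under stress and free or activate the effectors. Senescent cells often depend on survival proteins, and the senolytic compound navitoclax (ABT-263), which the study applied to cells made senescent by drugs, binds BCL-2, BCL-xL and BCL-W but not MCL1 with high affinity.

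The study asked whether blocking CDK2 together with CDK4/6 drives cancer cells into senescence, a lasting arrest of the cell cycle. A549, a lung cancer line without p16, was sequenced untreated, after 10 days in 2 µM palbociclib (a CDK4/6 inhibitor), after 10 days in 0.5 µM indisulam (a sulfonamide that sends the splicing factor RBM39 to degradation), after 10 days in both drugs at these doses (the combination), and after 7 days in 0.5 µM PF-06873600 (which blocks CDK2 together with CDK4/6). SUM159, a triple-negative breast cancer line, was sequenced untreated and after 7 days in 0.5 µM PF-06873600. Each of the 7 groups had 2 libraries, 14 in all, which the submitters call technical duplicates, so that the p-values below measure the spread between these libraries and not between independent cultures. The labels give no time for the untreated cells, and palbociclib and PF-06873600 were given at different doses and for different times, so their values are set side by side without a test.

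Libraries held 13060374 to 21149256 reads counted on genes, at which 3 counts, taken as the smallest level a library can show, are 0.142 to 0.23 CPM (counts scaled to the library's total on genes, times 1000000). Markers fitted the lines: the lowest level of KRT8, KRT18 and AKR1B10 in any A549 library was 1554 CPM and CDKN2A had 0 counts in each of these libraries, while SUM159 had VIM at 3609 to 4318 CPM and ESR1 and PGR at no more than 0.662 CPM. The cytokeratins KRT8 and KRT18 were at 260 to 433 and 166 to 321 CPM in SUM159. CDKN2A had 3 and 1 counts in untreated SUM159 and 0 and 1 with PF-06873600, so its absence did not tell the lines apart. EPCAM lay at 7.73 to 26.4 CPM in A549 and 0.284 to 0.844 CPM in SUM159. Of the 4 markers of other cells, CD3E had 0 counts in every library and CD14 lay at 0.784 to 12.03 CPM, while PTPRC and PECAM1 reached 9.35 to 20.3 and 10.9 to 27.6 CPM in SUM159 and were higher there after PF-06873600 than before it, and their part in the results on that line was not tested. Treatment moved arrest markers in A549, with CDKN1A at 39.2 to 43.7 CPM untreated and 666 to 683 CPM in the combination, and MKI67 at 172 to 182 and 29.3 to 29.99 CPM. The shift was smaller with palbociclib alone, where CDKN1A lay at 54.3 to 56.03 CPM and MKI67 at 107 to 123 CPM. The 4 A549 comparisons against untreated cells share the same 2 untreated libraries, which differed from each other more than any other pair, so their values are not independent of one another.

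For the 4 members whose promoter window held a match to a motif named below, the window is printed as a setting for the values that follow. The choice follows the matches and not the size of change. RefSeq windows of 300 bases (250 before the annotated start and 50 after it, GRCh38.p14, written 5′ to 3′ on the gene's strand) were found for 8 of the 10 members. Capitals mark matches on either strand to the E-box CACGTG, the AP-1 site TGANTCA, the core of the cAMP response element ACGTCA and the FOXO site GTAAACA. E2F sites (TTTCGCGC, TTTCCCGC, TTTGGCGC or TTTGCCGC) were also searched, and none matched in the 4 windows printed. The motifs searched share no letters of 1 match with another in these windows.
BAX, chr19:48954625-48954924, plus strand: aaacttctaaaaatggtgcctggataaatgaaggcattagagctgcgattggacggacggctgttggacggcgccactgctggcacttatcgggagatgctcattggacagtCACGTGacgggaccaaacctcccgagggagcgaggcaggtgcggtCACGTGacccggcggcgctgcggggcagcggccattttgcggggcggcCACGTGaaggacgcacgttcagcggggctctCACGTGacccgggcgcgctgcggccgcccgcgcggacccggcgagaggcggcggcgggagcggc
BBC3, chr19:47232618-47232917, minus strand: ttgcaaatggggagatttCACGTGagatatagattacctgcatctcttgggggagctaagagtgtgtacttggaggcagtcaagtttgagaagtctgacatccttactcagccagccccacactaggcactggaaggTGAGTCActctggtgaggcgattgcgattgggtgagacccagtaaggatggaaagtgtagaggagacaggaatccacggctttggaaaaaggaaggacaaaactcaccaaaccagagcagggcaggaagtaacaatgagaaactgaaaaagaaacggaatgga
PMAIP1, chr18:59899746-59900045, plus strand: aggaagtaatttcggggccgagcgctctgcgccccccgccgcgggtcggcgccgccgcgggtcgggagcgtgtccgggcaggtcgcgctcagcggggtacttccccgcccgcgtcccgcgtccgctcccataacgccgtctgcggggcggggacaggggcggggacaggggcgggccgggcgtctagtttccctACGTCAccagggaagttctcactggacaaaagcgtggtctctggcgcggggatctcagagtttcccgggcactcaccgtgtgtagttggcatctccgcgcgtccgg
BCL2L11, chr2:111120664-111120963, plus strand: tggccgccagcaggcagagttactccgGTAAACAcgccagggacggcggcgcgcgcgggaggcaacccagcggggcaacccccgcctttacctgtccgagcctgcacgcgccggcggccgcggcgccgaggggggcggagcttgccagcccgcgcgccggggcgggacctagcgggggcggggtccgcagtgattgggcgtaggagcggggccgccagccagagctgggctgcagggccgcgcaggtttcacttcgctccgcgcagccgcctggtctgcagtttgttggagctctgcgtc
The window of BAX held 4 E-boxes, starting 138, 93, 45 and 14 bases before the annotated start. BBC3 held 1 E-box and 1 AP-1 site, PMAIP1 1 cAMP response element core, and BCL2L11 1 FOXO site. Over 34796 RefSeq promoter windows of the same length, 7.2% held an E-box, 7.73% an AP-1 site, 7.97% the cAMP response element core, 3.42% a FOXO site and 3.3% an E2F site. Elsewhere in the family, no motif matched in the windows of BAK1, BCL2, BCL2A1 or BCL2L1. Such matches are letters in a window and were not tested for binding.

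**Figure D1:**
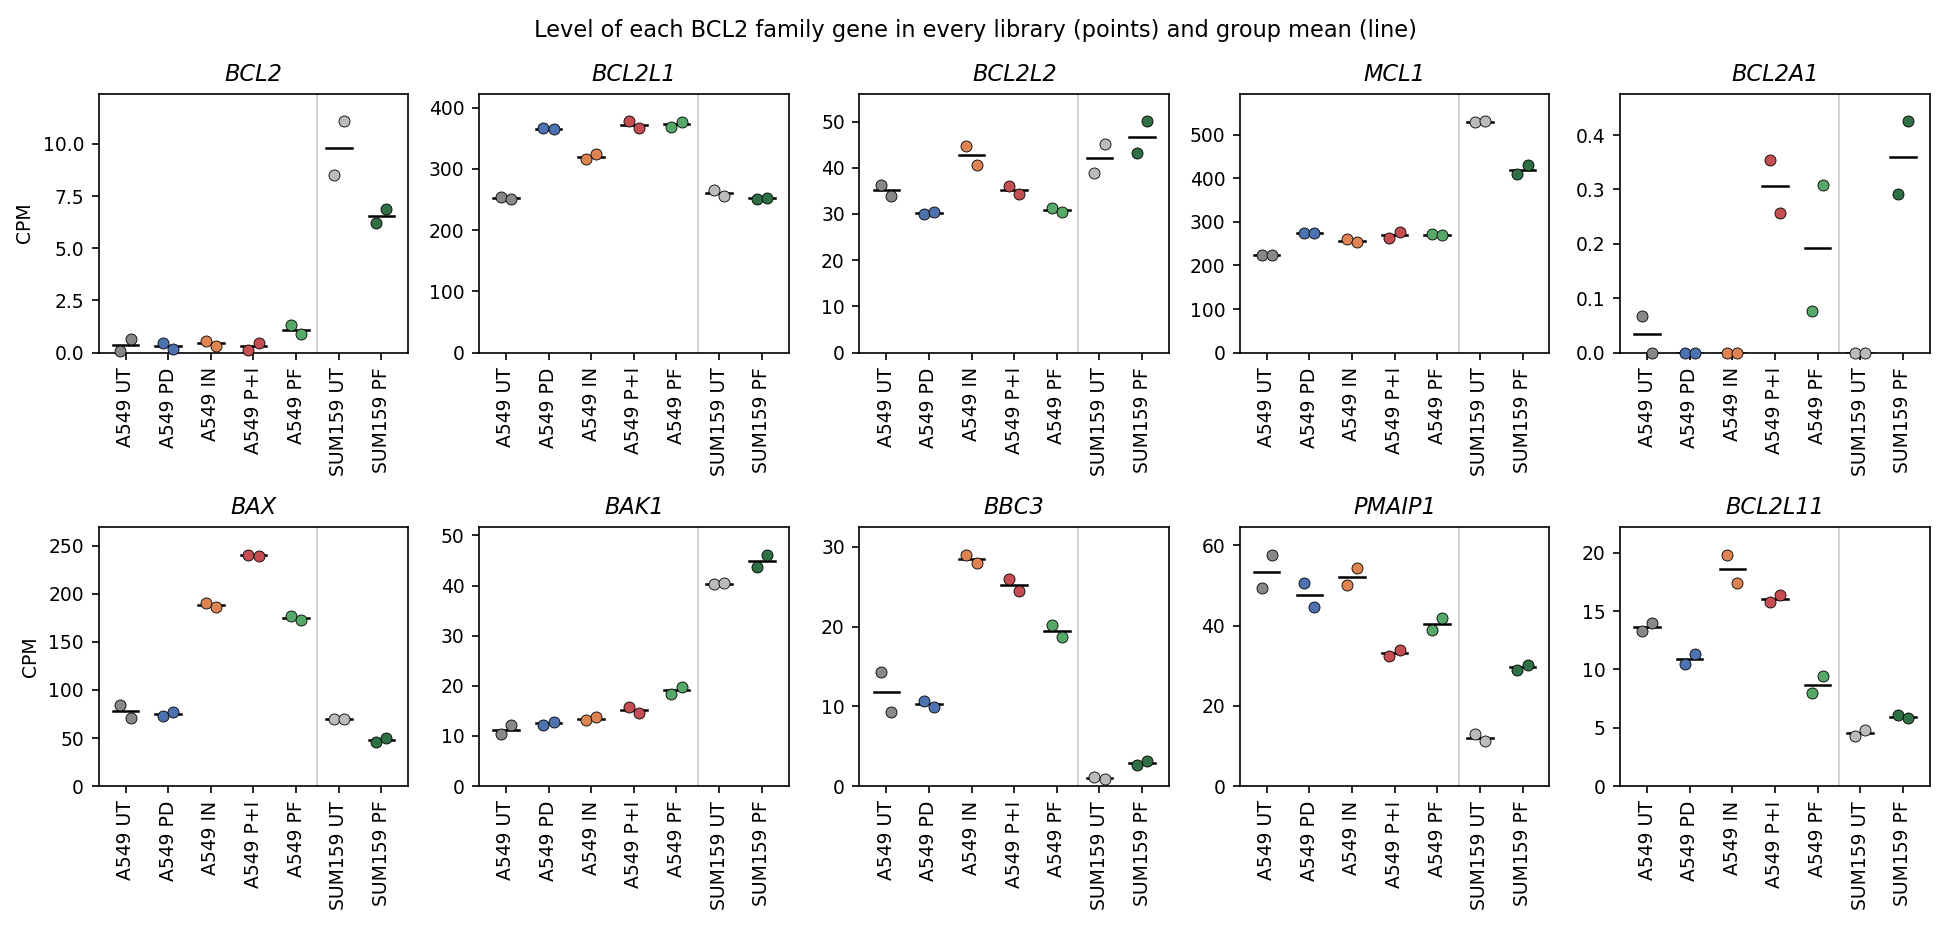
Level (CPM, linear axis from 0, with its own scale for each gene) of the 10 genes in all 14 libraries. UT is untreated, PD palbociclib, IN indisulam, P+I the combination and PF PF-06873600. Each point is 1 library and each line the mean of 2; BAX stood at 241 and 240 CPM in the combination against 84.8 and 70.997 CPM in untreated A549, whereas PMAIP1 was at 32.4 and 33.9 against 49.3 and 57.7 CPM.

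In level per length of exons (CPM per kilobase of the union of annotated exons), untreated A549 ranked BCL2L1 first, at 60.2 ± 0.565 (SD, n = 2), followed by MCL1 at 36.001 ± 0.24, BAX at 30.1 ± 3.78 and PMAIP1 at 24.5 ± 2.71. BCL2L2 (7.25 ± 0.326), BAK1 (5.08 ± 0.576), BBC3 (3.71 ± 1.13) and BCL2L11 (2.03 ± 0.071) came next, and BCL2 and BCL2A1 were at or near the smallest level the libraries can show. Neighbours in this order did not overlap between libraries, apart from BCL2 and BCL2A1, but the places of MCL1 and BAX, and of BAK1 and BBC3, were exchanged when the longest annotated transcript gave the length. In untreated SUM159 the order opened with MCL1 (85.2 ± 0.3) and BCL2L1 (62.2 ± 1.44), and BAK1 (18.3 ± 0.0949) stood next to BAX (26.9 ± 0.0877). BBC3 was lowest there apart from BCL2A1, at 0.327 ± 0.0458 CPM per kilobase, while BCL2 (0.777 ± 0.145) and BCL2L11 (0.675 ± 0.0567) overlapped.

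BCL2L1 rose in A549 under each of the 4 treatments. This gene encodes BCL-xL, the survival protein that navitoclax binds. It stood at 254 and 251 CPM in the untreated libraries, at 367 and 365 CPM with palbociclib, at 316 and 325 CPM with indisulam, at 378 and 367 CPM with the combination and at 369 and 376 CPM with PF-06873600. All 8 treated libraries lay above both untreated ones, though in RNA from a whole culture a higher level per cell and more cells that express a gene cannot be told apart. In edgeR's quasi-likelihood test with Benjamini-Hochberg adjustment over all genes, the rise was 1.45-fold with palbociclib (log2 fold change 0.54, SE 0.0513, adjusted p = 7.33e-06). It was 1.27-fold with indisulam (log2 fold change 0.34, SE 0.0514, adjusted p = 8.75e-05), 1.47-fold with the combination (log2 fold change 0.56, SE 0.0513, adjusted p = 2.35e-07) and 1.48-fold with PF-06873600 (log2 fold change 0.56, SE 0.0514, adjusted p = 3.6e-07). The combination did not pass the test against palbociclib alone (log2 difference 0.02, 95% interval -0.08 to 0.13, adjusted p = 0.699), and that small difference took the other sign with TMM and with DESeq2 scaling. In SUM159, where the gene was at 265 and 257 CPM untreated and 251 and 253 CPM with PF-06873600, no change passed the test (log2 difference -0.05, 95% interval -0.17 to 0.07). Exons of BCL2L1 (chr20:31664452-31723989, minus strand) share 41.3% of their bases with the antisense gene ABALON, which had 5 to 22 counts per library. Gene counts do not separate the long survival isoform of BCL2L1 from the short one that promotes death, nor those of MCL1 and BCL2L11.

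MCL1, a survival protein that turns over fast and that navitoclax spares, rose less. Its levels were 223 and 225 CPM in untreated A549, 275 and 273 CPM with palbociclib, 260 and 254 CPM with indisulam, 262 and 277 CPM with the combination and 271 and 269 CPM with PF-06873600. All treated A549 libraries were above the untreated pair, by 1.22-fold with palbociclib (adjusted p = 0.00171 by edgeR), 1.15-fold with indisulam (adjusted p = 0.00689), 1.2-fold with the combination (adjusted p = 0.000467) and 1.21-fold with PF-06873600 (adjusted p = 0.000533). The indisulam call was lost with TMM scaling, with DESeq2, with only the groups compared in the model and without indisulam library 1, and the palbociclib call with only the groups compared. SUM159 moved the other way: its untreated libraries held 529 and 531 CPM and those with PF-06873600 410 and 430 CPM (log2 fold change -0.33, SE 0.0586, adjusted p = 0.000117), which still lay above every A549 library.

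BCL2L2 encodes BCL-W, the third protein that navitoclax binds. It was at 36.2 and 33.998 CPM in untreated A549 and at 44.7 and 40.7 CPM with indisulam, where it rose 1.22-fold (edgeR adjusted p = 0.00881), a call that was lost with DESeq2, with only the groups compared in the model and without indisulam library 1. With palbociclib it was at 30.1 and 30.5 CPM, with the combination at 36.2 and 34.4 CPM and with PF-06873600 at 31.2 and 30.5 CPM, and none of these groups passed the test against untreated cells, though PF-06873600 did, with a lower level, without untreated library 2. The combination was below indisulam alone (log2 fold change -0.28, adjusted p = 0.00957), a call lost with DESeq2 and without indisulam library 1 or combination library 2. It was above palbociclib alone (log2 fold change 0.22, adjusted p = 0.0294), a call lost with TMM, with DESeq2, with no filter on low counts and without any 1 of the 4 libraries compared. SUM159 showed 38.9 and 45.2 CPM untreated and 43.3 and 50.1 CPM with PF-06873600, which overlap, with a higher level that passed without untreated library 2 or PF-06873600 library 1. Exons of BCL2L2 share 24.8% of their bases with other genes, of which the read-through gene BCL2L2-PABPN1 on the same strand had no more than 16 counts in a library. PPP1R3E on the other strand, which overlaps 6.51% of these bases, had 76 to 253 counts. It was at 17.2 and 12 CPM in untreated A549 and at 7.3 and 6.89 CPM in the combination. The part of these genes in the counts of BCL2L2 was not tested.

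BCL2 itself, the founding member, was close to absent in A549 and present in SUM159. Its counts in A549 were 1 and 10 untreated, 6 and 3 with palbociclib, 8 and 5 with indisulam, 2 and 7 with the combination and 17 and 14 with PF-06873600. The PF-06873600 libraries were the highest, but the difference did not pass the test (edgeR adjusted p = 0.0568), though it did with no filter on low counts and without untreated library 2, and at these counts no fold change is given for A549. BCL2 passed the filter on low counts in A549 only through these PF-06873600 libraries, so its test there was not independent of their level. SUM159 had 141 and 177 counts untreated (8.5 and 11.1 CPM) and 106 and 146 with PF-06873600 (6.2 and 6.9 CPM), and the fall passed the test (log2 fold change -0.57, SE 0.155, adjusted p = 0.00388). BCL2A1, an NF-kB target that encodes BFL-1, was too low to be tested in either line. It had 1 and 0 counts in the untreated A549 libraries, 0 in all 4 libraries with palbociclib or indisulam alone, 5 and 4 with the combination and 1 and 5 with PF-06873600. In SUM159 it had 0 counts in both untreated libraries and 5 and 9 counts with PF-06873600, so every library of the combination in A549 and of PF-06873600 in SUM159 exceeded 3 counts.

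BAX was the member with the largest rise in A549. Its protein waits in the cytosol and inserts into mitochondria once activated, and its gene is known to be induced by DNA damage. It was at 84.8 and 70.997 CPM in untreated cells and at 72.4 and 77.1 CPM with palbociclib, which overlap. With indisulam it was at 190 and 187 CPM, with the combination at 241 and 240 CPM and with PF-06873600 at 177 and 173 CPM. All 6 of these libraries lay above every untreated and palbociclib library. The rise over untreated was 2.42-fold with indisulam (log2 fold change 1.27, SE 0.0735, adjusted p = 5.94e-09), 3.09-fold with the combination (log2 fold change 1.63, SE 0.0734, adjusted p = 8.96e-11) and 2.25-fold with PF-06873600 (log2 fold change 1.17, SE 0.0736, adjusted p = 7.02e-09), by edgeR. Palbociclib alone gave a log2 difference of -0.06 (95% interval -0.22 to 0.10), with the other sign without untreated library 1. The combination exceeded indisulam alone by 1.28-fold (adjusted p = 0.000845). In SUM159 BAX fell, from 69.7 and 69.4 CPM untreated to 46.2 and 49.6 CPM with PF-06873600 (log2 fold change -0.54, SE 0.0628, adjusted p = 1.97e-06). No exonic base of BAX (chr19:48954815-48961798, plus strand) is shared with another annotated gene.

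BAK1, the effector that resides in the mitochondrial membrane, rose in smaller steps. A549 had 10.3 and 12.1 CPM untreated, 12.1 and 12.9 CPM with palbociclib, 13.2 and 13.7 CPM with indisulam, 15.8 and 14.5 CPM with the combination and 18.5 and 19.7 CPM with PF-06873600. The combination (log2 fold change 0.43, SE 0.114, adjusted p = 0.0043) and PF-06873600 (log2 fold change 0.77, SE 0.111, adjusted p = 3.87e-05) passed edgeR's test, while palbociclib (adjusted p = 0.43) and indisulam (adjusted p = 0.084) did not, though indisulam did without untreated library 2. The call for the combination was lost with DESeq2. SUM159 held more of this gene, 40.2 and 40.5 CPM untreated and 43.7 and 46.1 CPM with PF-06873600, a 1.11-fold rise at the edge of the threshold (adjusted p = 0.049) that was lost with DESeq2, with no filter on low counts and without any 1 of the 4 libraries. The pseudogenes BAK1P1 and BAK1P2 had at most 5 counts in a library.

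BBC3 encodes PUMA, a BH3-only protein induced by DNA damage that binds all survival members. Its levels in A549 were 14.3 and 9.27 CPM untreated, 10.7 and 9.95 CPM with palbociclib, 29.03 and 27.95 CPM with indisulam, 25.95 and 24.5 CPM with the combination and 20.2 and 18.7 CPM with PF-06873600. The untreated pair was spread wide, and palbociclib passed, with a lower level, only without untreated library 2, yet the 6 libraries with indisulam, the combination or PF-06873600 were all above both. By edgeR, the rise was 2.42-fold with indisulam (log2 fold change 1.27, SE 0.142, adjusted p = 5.47e-06), 2.14-fold with the combination (log2 fold change 1.09, SE 0.144, adjusted p = 1.03e-05) and 1.65-fold with PF-06873600 (log2 fold change 0.72, SE 0.148, adjusted p = 0.00084). The combination did not pass the test against indisulam alone (log2 difference -0.18, 95% interval -0.45 to 0.10, adjusted p = 0.285). SUM159 had little BBC3, 19 and 15 counts untreated (1.15 and 0.939 CPM) and 46 and 67 with PF-06873600 (2.69 and 3.17 CPM), a 2.81-fold rise (adjusted p = 0.000166).

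PMAIP1 encodes NOXA, the BH3-only partner that binds MCL1 and BFL-1. In A549 no treatment gave a rise that passed the test. It was at 49.3 and 57.7 CPM untreated, 50.6 and 44.7 CPM with palbociclib and 50.2 and 54.3 CPM with indisulam, and at 32.4 and 33.9 CPM with the combination and 38.97 and 41.8 CPM with PF-06873600. The last 2 groups lay below every other A549 library and fell (log2 fold change -0.69, SE 0.0929, adjusted p = 1.33e-05 for the combination, log2 fold change -0.40, SE 0.0913, adjusted p = 0.00168 for PF-06873600, edgeR). Neither single drug passed the test (adjusted p = 0.236 for palbociclib and 0.778 for indisulam), though palbociclib did, with a lower level, without untreated library 1. In SUM159 PMAIP1 went from 12.9 and 11.2 CPM to 29.1 and 30.2 CPM with PF-06873600, a 2.46-fold rise (log2 fold change 1.30, SE 0.0973, adjusted p = 1.41e-08), with the lowest adjusted p of the 9 members tested there.

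BCL2L11 encodes BIM, a BH3-only protein whose gene is a known FOXO target and whose window above holds the FOXO site. A549 had 13.3 and 13.999 CPM untreated, 10.5 and 11.3 CPM with palbociclib, 19.8 and 17.4 CPM with indisulam, 15.8 and 16.3 CPM with the combination and 7.96 and 9.4 CPM with PF-06873600. Indisulam raised it 1.36-fold (edgeR adjusted p = 0.00468), a call lost with DESeq2 and without indisulam library 1, whereas PF-06873600 lowered it (log2 fold change -0.65, SE 0.124, adjusted p = 0.000463). Palbociclib (adjusted p = 0.0868) and the combination (adjusted p = 0.0821) did not pass, although the combination was 1.47-fold above palbociclib alone (adjusted p = 0.000856). With PF-06873600 in SUM159 the gene stood at 6.08 and 5.82 CPM against 4.28 and 4.82 CPM, a difference just outside the threshold (log2 fold change 0.38, adjusted p = 0.0503) that passed with TMM, with a mean of at least 50 counts and without untreated library 2. Exons of BCL2L11 share 10.8% of their bases with MIR4435-2HG on the other strand, which lay at 10.4 to 11.01 CPM in untreated A549, 10.2 to 11.8 CPM with PF-06873600, 14.8 to 15.2 CPM with indisulam, where BCL2L11 was called higher, and 20.8 to 21.1 CPM in the combination. In SUM159 MIR4435-2HG lay above BCL2L11, at 30.9 and 37.2 CPM untreated, and was lower with PF-06873600, at 19.9 and 18.96 CPM. The part of MIR4435-2HG in the counts of BCL2L11 was not tested in either line.

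**Figure D2:**
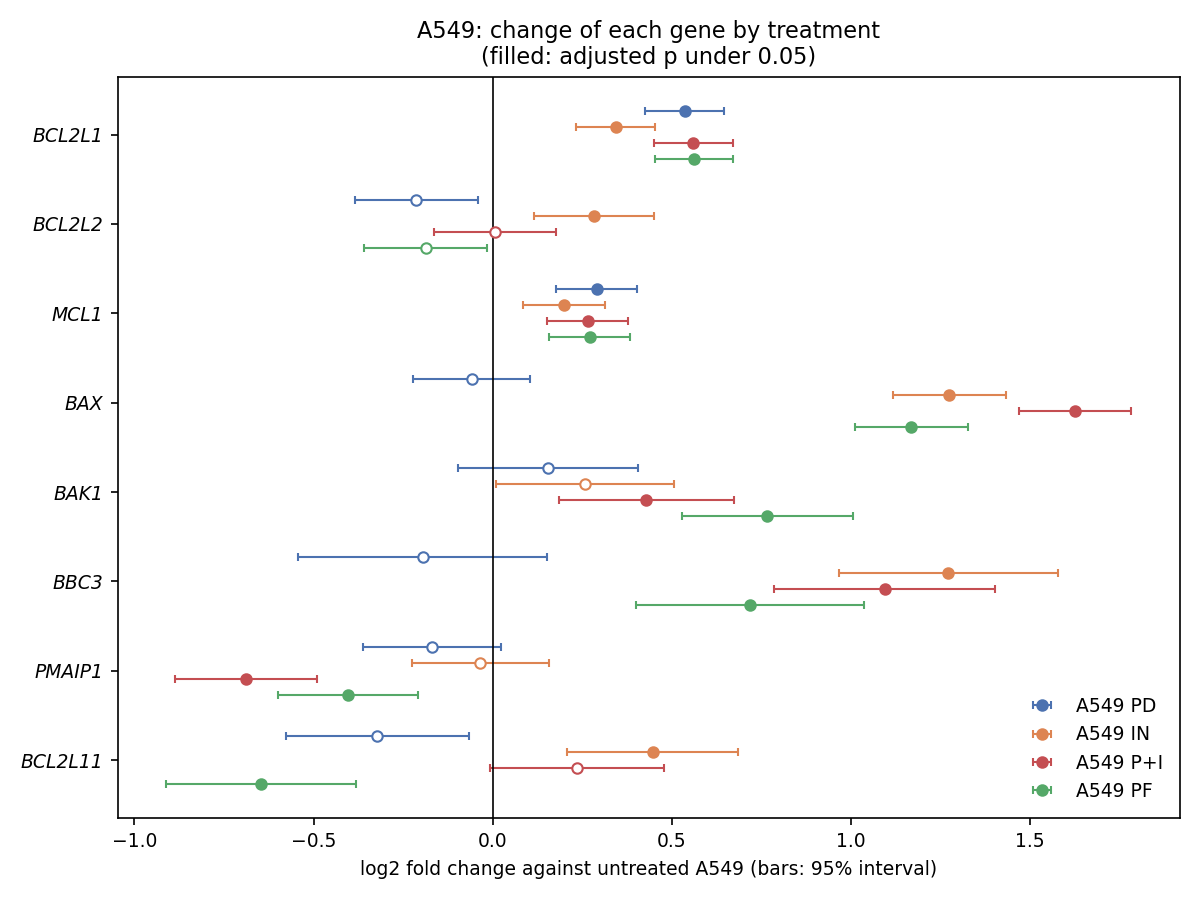
Log2 fold change against untreated A549, from the edgeR model of 10 libraries, with 95% intervals, for the 8 members with enough counts in A549. PD is palbociclib, IN indisulam, P+I the combination and PF PF-06873600. Filled points have an adjusted p under 0.05; BCL2L1 and MCL1 are filled in all 4 treatments, BAX and BBC3 in all but palbociclib, and PMAIP1 lies on the left for the combination (-0.69) and PF-06873600 (-0.40).

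Counted by comparison, 9 of the 10 members could be tested, as BCL2A1 did not pass the filter on low counts. In the A549 model BCL2 passed it only through the PF-06873600 libraries. Palbociclib against untreated A549 gave 2 members higher and 0 lower, where 15.7% of all 15780 genes tested were called (8.3% higher and 7.4% lower). Indisulam gave 6 higher and 0 lower, against a background of 45.5% (28% higher and 17.5% lower, or 4420 and 2757 genes, against 3613 and 3558 with TMM), and 3 of the 6 remained with DESeq2. The combination gave 5 higher and 1 lower against 65.2% (35.1% higher and 30% lower), so its share of called members was close to that of all genes. These shares are 5544 genes higher and 4739 lower, and with TMM the larger side changed, to 4908 higher and 5397 lower. PF-06873600 gave 5 higher and 2 lower in A549, where 56.3% of genes were called (28.5% higher and 27.8% lower), and 3 higher and 3 lower in SUM159, where 73.7% of 15055 genes were called (38.1% higher and 35.6% lower). The median log2 fold change over the 9 members was -0.17 with palbociclib, 0.28 with indisulam, 0.27 with the combination, 0.56 with PF-06873600 in A549 and 0.16 in SUM159. Over all genes tested, the medians ran from -0.01 to 0.08.

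To ask what each drug added, the combination was set against each drug alone. Against palbociclib, 5 members were higher and 1 lower (background 60.4%, with 33.5% higher and 26.9% lower), with BAX 3.21-fold higher (adjusted p = 9.9e-11, edgeR), BBC3 2.45-fold higher (adjusted p = 2.96e-06) and PMAIP1 lower (log2 fold change -0.52, adjusted p = 0.000246). The BAK1 call in this comparison (log2 fold change 0.27, adjusted p = 0.0476) was lost with TMM, with DESeq2, with no filter and without any 1 of 8 libraries: both palbociclib, indisulam, combination and PF-06873600 libraries. Against indisulam, 2 were higher and 2 lower (background 46%, with 22% higher and 23.9% lower): BCL2L1 and BAX on one side, BCL2L2 and PMAIP1 on the other. PMAIP1 was at 0.635 of its indisulam level (adjusted p = 4.96e-05).

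The interaction term gives how far the combination departed from the sum of both single-drug changes on the log2 scale. It passed for 4 members, 1 above the sum and 3 below (background 25.2%, with 10.7% above and 14.5% below). BAX was higher than the sum, by 0.41 (SE 0.103, adjusted p = 0.00929, edgeR). BCL2L1 was lower than the sum (-0.32, SE 0.0723, adjusted p = 0.0048). PMAIP1 was lower too (-0.48, SE 0.129, adjusted p = 0.0132), a call lost without palbociclib library 1, indisulam library 2 or combination library 1. The term for MCL1 (-0.22, adjusted p = 0.0396) was lost with DESeq2, with no filter on low counts, with only the 4 compared groups in the model, and without any 1 of the palbociclib, indisulam, combination or PF-06873600 libraries. For BBC3 the term was 0.02 with a 95% interval of -0.42 to 0.46, and for BAK1 0.02 (-0.33 to 0.36).

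PF-06873600 was the treatment given at the same dose and for the same time to both lines, and the members answered it differently. The test of the difference between the lines (log2 fold change in SUM159 minus that in A549) passed for 8 of the 9 members tested. The difference was positive for 3 and negative for 5, against a background of 53% of 17279 genes, with 25.8% and 27.2%. BAX rose in A549 and fell in SUM159, a difference of -1.70 on the log2 scale (SE 0.102, adjusted p = 6.16e-11, edgeR). PMAIP1 fell in A549 and rose in SUM159, a difference of 1.70 (SE 0.138, adjusted p = 4.58e-09). For neither gene did a treated library overlap with the untreated ones of its line. MCL1 also changed in opposite directions (-0.60, adjusted p = 9.65e-07). BCL2L1 (-0.61, adjusted p = 5.95e-07) and BAK1 (-0.61, adjusted p = 0.000544) had a larger response in A549: BCL2L1 was called higher in A549 and did not pass in SUM159, and BAK1 was called higher in both. BCL2L11 (1.03, adjusted p = 0.000156) fell in A549 and did not pass in SUM159. Differences for BCL2L2 (0.34, adjusted p = 0.0286) and BCL2 (-2.08, adjusted p = 0.00933) were less firm: the former was lost without any 1 of 5 libraries, untreated 1, PF-06873600 1 or PF-06873600 2 of A549 and untreated 1 or PF-06873600 2 of SUM159, and the latter, which rests on 1 to 17 counts in A549, without untreated library 1 or PF-06873600 library 1 of that line. BBC3 rose in both lines, and the difference did not pass (0.77, 95% interval 0.07 to 1.48, adjusted p = 0.0621), though it did with TMM, with no filter and without untreated A549 library 2.

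**Figure D3:**
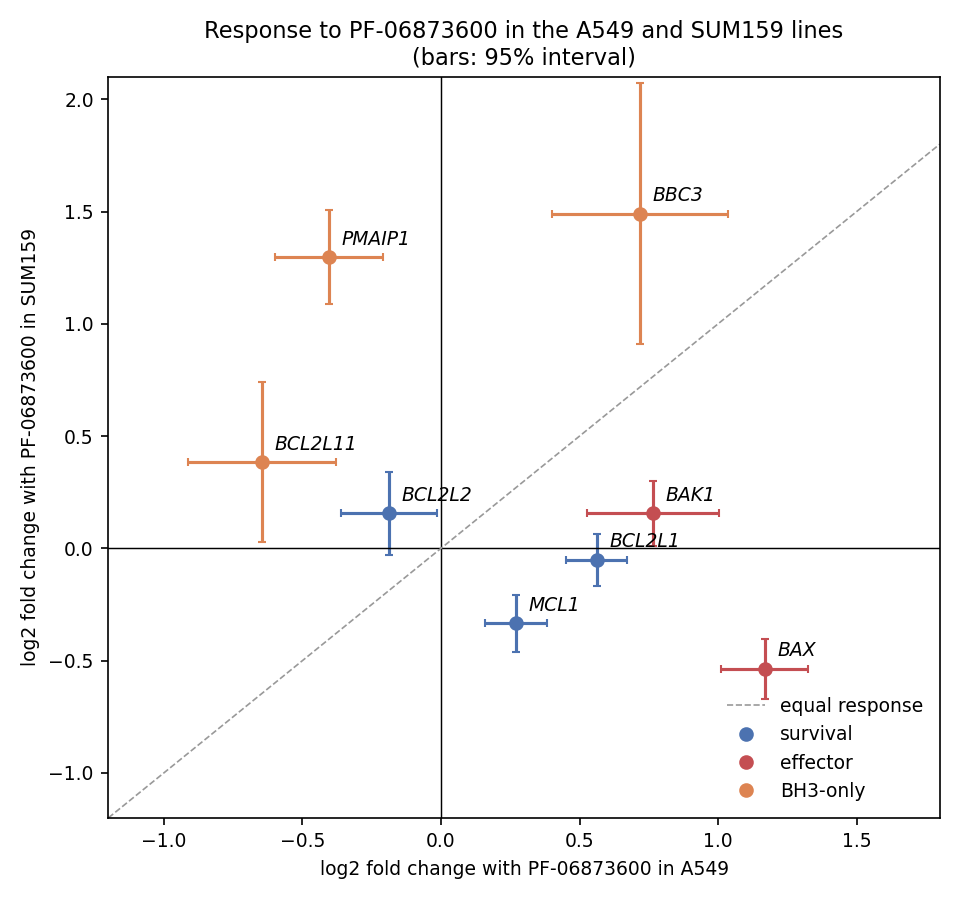
Log2 fold change with PF-06873600 in A549 (horizontal) and SUM159 (vertical) for the 8 members with enough counts in both lines, with 95% intervals from the model of each line. The dashed line marks equal responses; BAX (1.17 in A549, -0.54 in SUM159) and PMAIP1 (-0.40 and 1.30) lie in opposite corners.

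Before treatment the lines already differed. Untreated SUM159 against untreated A549 called 4 of the 9 members higher and 4 lower (background 78.7%, with 41.9% higher and 36.8% lower). MCL1 was 2.37-fold higher in SUM159 (adjusted p = 4.44e-14, edgeR) and BAK1 3.59-fold higher (adjusted p = 8.93e-13). All 3 BH3-only genes were lower: BBC3 (log2 fold change -3.49, adjusted p = 6.45e-11), PMAIP1 (-2.15, adjusted p = 2.89e-13) and BCL2L11 (-1.59, adjusted p = 2.23e-09). BCL2 was higher in SUM159 (adjusted p = 1.2e-09), at 141 and 177 counts against 1 and 10. BCL2L1 did not pass (0.05, 95% interval -0.06 to 0.15), and its difference changed sign with TMM and with DESeq2 scaling. BAX (-0.16, adjusted p = 0.0467) kept its call with TMM, DESeq2 and a mean of at least 50 counts, and lost it with the other settings and without any 1 of the libraries other than untreated A549 library 2, with a log2 difference of -0.03 without untreated A549 library 1. BCL2L2 (0.26, adjusted p = 0.0128) lost its call with TMM, with DESeq2, with only the 2 groups compared in the model, and without untreated A549 library 2 or untreated SUM159 library 2. TMM scaling moved the median of all genes by -0.11 in this comparison.

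Within a library, ratios between members do not depend on how the library was scaled. BCL2L1 over MCL1, both in CPM per kilobase, was 1.69 and 1.65 in the untreated A549 libraries and 1.98 and 1.98 with palbociclib, 1.8 and 1.89 with indisulam, 2.14 and 1.97 with the combination and 2.02 and 2.07 with PF-06873600, so every treated A549 library was above both untreated ones. In SUM159 it was 0.744 and 0.716 untreated and 0.905 and 0.873 with PF-06873600, below 1 throughout. The ratio of BAX to BCL2L1, an effector gene to the survival gene with the highest RNA level per kilobase in A549, was 0.541 and 0.459 in untreated A549. It was 0.32 and 0.342 with palbociclib, 0.975 and 0.934 with indisulam, 1.03 and 1.06 with the combination and 0.779 and 0.746 with PF-06873600, below the untreated libraries in the first case and above them in the other 3. SUM159 showed 0.426 and 0.439 untreated and 0.299 and 0.318 with PF-06873600. BAK1 over BAX went from 0.675 and 0.683 to 1.11 and 1.09 in SUM159, and from 0.142 and 0.2 to 0.0768 and 0.0706 in A549 with the combination. Whether a ratio is above or below 1 depends on the gene lengths used: with the longest transcripts, BAX over BCL2L1 was 0.8 and 0.679 in untreated A549, 1.53 and 1.57 with the combination and 1.15 and 1.1 with PF-06873600, and BAK1 over BAX 0.581 and 0.571 in SUM159 with PF-06873600. These ratios were not tested, as an exact permutation test of 2 libraries against 2 cannot give a two-sided p below 0.33. They are ratios of RNA and need not hold for the proteins, which were not measured in these libraries.

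**Figure D4:**
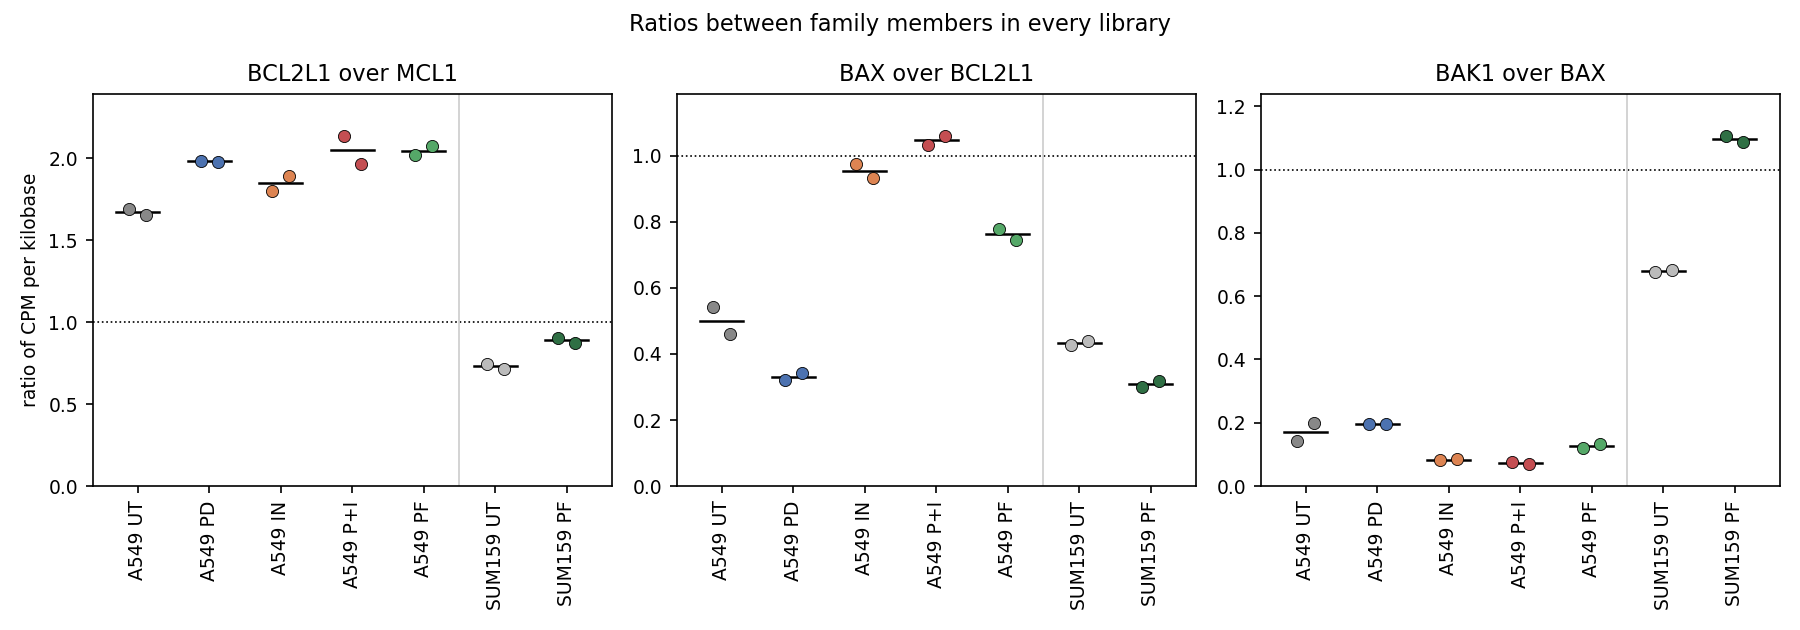
Ratios of CPM per kilobase of exons between members in each library (points), with group means (lines), on linear axes from 0; the dotted line marks 1. UT is untreated, PD palbociclib, IN indisulam, P+I the combination and PF PF-06873600. BCL2L1 over MCL1 lies above 1.6 in A549 and below 1 in SUM159, and BAX over BCL2L1 is highest in the combination (1.03 and 1.06).

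The 3 BH3-only genes together shifted in make-up. PMAIP1 supplied 77.7 and 84.1% of their summed CPM per kilobase in untreated A549 and 58.6 and 60.6% in the combination, while BBC3 went from 15.5 and 9.28% to 32.2 and 29.97%. Part of this shift was seen with indisulam alone (PMAIP1 65.6 and 68.6%, BBC3 26.03 and 24.3%) and with PF-06873600 (PMAIP1 70.3 and 72.5%, BBC3 25.03 and 22.2%). Palbociclib alone left PMAIP1 at 82.5 and 80.96%. In SUM159 the sum itself rose, from 6.9 and 6.14 to 15.04 and 15.7 CPM per kilobase, with PMAIP1 at 88.4 and 88.2% of it after PF-06873600. In untreated A549 the sum was 29.02 and 31.4 CPM per kilobase, and in the combination it was 25.3 and 25.6. It was 28.1 and 25.2 with palbociclib, 35.01 and 36.2 with indisulam and 25.4 and 26.4 with PF-06873600.

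The family's other genes and the pathways around it were described from 9 lists. Among 13 further BCL2 relatives, 11 were tested in A549, and the combination called 8 higher and 3 lower (35.1% of all genes were higher and 30% lower), with a median log2 fold change of 0.62 against 0.05 over all genes. HRK, a BH3-only protein best known from neurons, went from 0 and 2 counts to 30 and 40, and had 10 and 7 counts with indisulam alone. BIK, another BH3-only protein, had 6 and 3 counts untreated and 20 and 26 in the combination. Untreated cells held too few counts of HRK and BIK to pass the filter on low counts. Both entered the 8 called higher through treated libraries, so no p-value is given for them. BOK, a relative of the effectors, rose from 7.27 and 6.27 to 20.1 and 16.7 CPM (log2 fold change 1.44, SE 0.133, adjusted p = 2.61e-07, edgeR). With PF-06873600 in A549, 4 were higher and 2 lower (median 0.09), close to the 56.3% of all genes called. BMF, a BH3-only protein, was at 0.383 and 0.371 CPM against 1.77 and 1.33 CPM untreated (log2 fold change -2.02, SE 0.492, adjusted p = 0.00291), BOK rose to 16.1 and 16.7 CPM (1.28 on the log2 scale), and BID, which caspase-8 cleaves to engage the mitochondrial route, rose from 32.8 and 34.998 to 56.4 and 59.2 CPM (log2 fold change 0.77, SE 0.0769, adjusted p = 8.89e-07). In SUM159 PF-06873600 called 7 of 9 higher and 2 lower, where 38.1% of all genes were higher and 35.6% lower (median 0.41, against 0.02 over all genes). HRK had 0 and 1 counts untreated and 14 and 15 treated. It passed the filter on low counts there only through the treated libraries, so its place among the 7 rests on them. BMF rose from 6.81 and 6.7 to 21.2 and 20.001 CPM (log2 fold change 1.60, SE 0.113, adjusted p = 7.1e-09) and BID from 53.4 and 48.8 to 124 and 126 CPM (log2 fold change 1.29, SE 0.0599, adjusted p = 6.92e-11). BMF was thus lower with PF-06873600 in A549 and higher in SUM159; the difference between the lines was 3.62 on the log2 scale (adjusted p = 2.59e-06).

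Of 16 genes known to be induced by DNA damage, all of which were tested, 16 were higher in A549 with the combination (median log2 fold change 1.75), with PF-06873600 (median 1.66) and with indisulam, and 5 with palbociclib, while 0 were lower in these 4 comparisons. Of all genes, 35.1%, 28.5%, 28% and 8.3% were higher in the same order. CDKN1A (p21, 4.03 with the combination and 3.63 with PF-06873600), FAS (a death receptor, 3.17 and 2.97) and SPATA18 (2.92 and 2.73) had the largest log2 fold changes in both. Among the members, BAX and BBC3 are also known to be induced by DNA damage. In A549 both were called higher with indisulam, the combination and PF-06873600, but not with palbociclib. PMAIP1, known to be induced in this way too, fell there in the combination and with PF-06873600. SUM159 with PF-06873600 had 11 of the 16 higher and 2 lower (median 0.45, against 38.1% and 35.6% of all genes), led by SPATA18 (3.47), BTG2 (1.88) and ZMAT3 (1.204). Of the members, BAX fell there (-0.54 on the log2 scale), while BBC3 (1.49) and PMAIP1 (1.30) rose. The difference between the lines (SUM159 minus A549) passed for 14 of the 16, and was positive for 1 and negative for 13 (53% of all genes passed, 25.8% and 27.2%).

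Genes of the integrated stress response, whose factors ATF4 and DDIT3 act upstream of PMAIP1 and BBC3, were mostly called lower in A549. With palbociclib 0 of 8 were higher and 7 lower (7.4% of all genes were lower), with indisulam 1 higher and 5 lower (17.5%), with the combination 2 higher and 6 lower (30%, median -1.02), and with PF-06873600 0 higher and 7 lower (27.8%, median -1.24). ASNS, which makes asparagine, went from 6.25 and 4.4 CPM to 1.13 and 1.93 CPM with the combination (-1.78 on the log2 scale) and 1.07 and 0.68 CPM with PF-06873600 (-2.62). TRIB3 fell in the same groups (-1.87 and -1.94 on the log2 scale), and CHAC1 fell (-1.67) with PF-06873600, whereas ATF3, which several stress routes induce, rose from 9.52 and 9.87 to 55.8 and 59.5 CPM with the combination (2.57). In SUM159 3 of 7 were higher and 3 lower (38.1% and 35.6% of all genes), among them CHAC1 (1.10) and DDIT3 (0.74) on the higher side and DDIT4 (-1.27) on the lower. The FOXO factors, whose site lies in the BCL2L11 window, were called lower in part in A549 (1 of 3 with palbociclib and 1 with indisulam, 3 with PF-06873600, with FOXO4 at -1.41, FOXO1 at -1.32 and FOXO3 at -0.33, and 2 lower with the combination, FOXO4 at -0.68 and FOXO1 at -0.64). In SUM159 FOXO4 (1.33) and FOXO3 (0.46) were higher and FOXO1 (-0.23) lower.

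Downstream of the family, 7 of 11 genes of the apoptosome and caspases were higher and 0 lower with PF-06873600 in A549 (median 0.30, against 28.5% of all genes higher and 27.8% lower), whereas 1 was higher and 7 lower in SUM159 (median -0.20, against 38.1% and 35.6%). DIABLO (SMAC), which mitochondria release to block inhibitors of apoptosis, rose in both, with a wide SE (1.04, SE 0.203, in A549 and 0.79, SE 0.299, edgeR adjusted p = 0.0277, in SUM159). CYCS, cytochrome c, rose in A549 (0.63, SE 0.0687) and fell in SUM159 (-0.81, SE 0.0524). ENDOG, a mitochondrial endonuclease, rose in A549 (0.51), and CASP6, a caspase, fell in SUM159 (-0.63). With the combination 3 were higher and 4 lower, a share of called genes close to the 65.2% over all genes. DIABLO (1.74) and APAF1, the scaffold of the apoptosome (1.00), rose, and DFFA, the inhibitor of a caspase-activated nuclease, fell (-0.79). Of the inhibitors of apoptosis, 6 were tested in A549 and 5 in SUM159. BIRC5 (survivin), which is tied to mitosis, fell in all 3 comparisons, with a log2 fold change of -2.80 with the combination, -0.84 with PF-06873600 in A549 and -1.44 in SUM159. BIRC3 (cIAP2), an NF-kB target, rose in all 3 (0.52, 0.68 and 2.198). The other called members named were BIRC7 with the combination (1.32), XIAP with PF-06873600 in A549 (-0.36) and BIRC6 in SUM159 (-0.31); in all, 3 were higher and 2 lower, 1 higher and 3 lower, and 1 higher and 2 lower, where 65.2%, 56.3% and 73.7% of all genes were called.

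NF-kB subunits, which induce BCL2A1 and BCL2L1, were listed with the inhibitors NFKBIA and TNFAIP3, which NF-kB induces and which hold it back. Of these 7 genes, 4 were called higher and 0 lower with the combination (65.2% of all genes were called, 35.1% higher), 3 higher and 3 lower with PF-06873600 in A549 (56.3%), and 4 higher and 1 lower in SUM159 (73.7%, median log2 fold change 1.11). TNFAIP3 (A20) rose most, from 2.18 and 2.27 to 16.7 and 16.99 CPM with the combination (2.92 on the log2 scale), to 4.06 and 4.2 CPM with PF-06873600 (0.89), and in SUM159 from 23.1 and 26.4 to 209 and 210 CPM (3.08). NFKB2 (1.01) and RELB (0.93) rose with the combination and in SUM159 (1.34 and 1.93), while NFKBIA (-0.71) and REL (-0.66) fell with PF-06873600 in A549. Of the outer membrane channels, VDAC2 (0.55) and VDAC1 (0.23) rose and VDAC3 (-0.55) fell with the combination, VDAC1 (0.44) and VDAC2 (0.34) rose with PF-06873600 in A549, and all 3 fell in SUM159 (VDAC3 -0.70, VDAC1 -0.45, VDAC2 -0.27). Of 3 genes of MCL1 protein turnover, FBXW7 (0.39) and USP9X (0.17) rose slightly with the combination, but TMM scaling left 1 higher and 1 lower and DESeq2 0 higher and 1 lower, and none passed with PF-06873600 in either line.

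**Figure D5:**
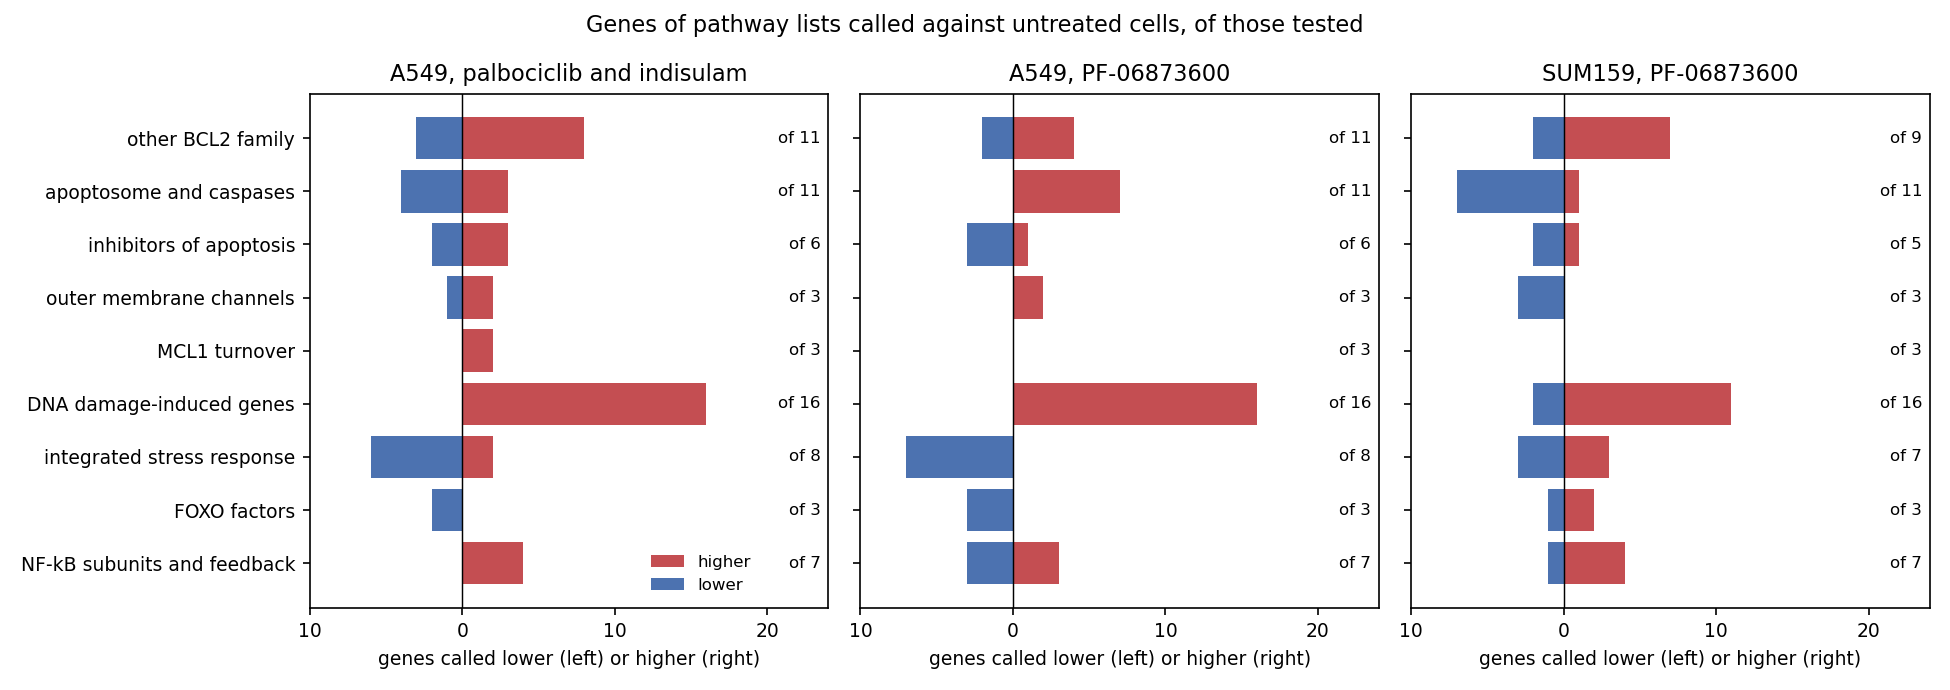
Number of genes of each pathway list called lower (blue, left of 0) or higher (red, right of 0) against untreated cells at an adjusted p under 0.05, with the number tested at the right. The 3 panels are the combination in A549, PF-06873600 in A549 and PF-06873600 in SUM159; the genes induced by DNA damage count 16, 16 and 11 higher of 16, and the apoptosome and caspases 3, 7 and 1 higher of 11.

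Genes whose log2 CPM followed a member most closely over the 10 A549 libraries are given as a description, since those libraries fall into 5 groups of 2 and share their depth. BAX ran closest with PTGES (Pearson r = 0.997) and CYFIP2 (0.994), and 286 genes had an r above 0.95 with it. PMAIP1 ran closest with PDS5A (0.986) and UTP23 (0.978), BBC3 with INPP5D (0.981) and CASKIN1 (0.979), and BCL2L11 with IGSF9B (0.988) and ROBO1 (0.979). BCL2L1 and MCL1 shared RASGRF1 (r = 0.983 and 0.951), next to FLVCR2 (0.976) for the former and E2F3 (0.967) for the latter, and ran with each other at 0.958. BAK1 ran with PITPNC1 (0.974) and TM7SF3 (0.970), and BCL2L2 with PNKD (0.971) and SNRNP200 (0.957). BCL2, at 1 to 17 counts, had no gene above 0.95, and its nearest were PALB2 (0.922) and ZNF567-DT (0.898).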

How the data were processed

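RNA of A549 and SUM159 cultures was made into stranded poly(A) libraries and sequenced by the authors with single-end reads, which were aligned to hg38. The submitters' processing notes name HISAT2 2.2.1, HTSeq and GRCh38. The annotation release and the strand setting of counting are not given in the sources used here, so the exonic overlap of members with other genes is stated. The authors deposited, for each of 14 libraries, whole-number read counts for 60683 gene identifiers and 9 summary lines, without normalization. Symbols and exons came from GENCODE release 44 (60370 identifiers matched), promoters from RefSeq (GRCh38.p14).

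Groups came from the sample titles. CPM were counts divided by the total on gene identifiers, without the summary lines, and CPM per kilobase used the union of exons. Genes were kept with filterByExpr of edgeR 4.0.16 (R 4.3.3), scaled by total count as in the study's methods, and tested by quasi-likelihood (glmQLFTest), adjusting p after Benjamini and Hochberg over all genes of a model (threshold 0.05). Models held 10 A549 libraries (15780 genes), 4 SUM159 libraries (15055) or all 14 (17279). The SE was taken as the size of the log2 fold change over the square root of F. Alternatives were TMM, DESeq2 1.42.0, no filter, only the groups compared, genes averaging at least 50 counts, the replicate number as a block, the longest transcript as length, and each library left out in turn. A block with crossed palbociclib numbers was chosen after seeing the data. Scripts were tested on simulated data. Python 3.11.15, pandas 2.3.3, scipy 1.17.1 and matplotlib 3.10.9 were also used.

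All 10 members were named with each library's value. Of each of the 9 lists, up to 3 called genes with the largest absolute log2 fold change were named for the combination in A549 and for PF-06873600 in each line, and for each member the 2 genes with the highest Pearson r over the 10 A549 libraries (log2 CPM, prior count 2). The members and lists were chosen with earlier results of these data known. The reads carry no molecular identifiers, so count limits cover counting error only. Libraries of other treatments of SUM159 were not analysed here, and some genes of the lists were left out of every count and are not reported here. The test of BMF between the lines and the counts of overlapping genes were chosen after their values were seen.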

Additional observations from a re-analysis of the deposited data

Results flagged for a closer look

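For 8 members the response to PF-06873600 differed between the lines by the test of the difference itself (edgeR interaction, adjusted p under 0.05). The response in SUM159 minus that in A549, on the log2 scale, was -1.705 for BAX, 1.70 for PMAIP1, 1.03 for BCL2L11, -0.6124 for BCL2L1, -0.611 for BAK1, -0.6043 for MCL1, 0.3419 for BCL2L2 and -2.077 for BCL2. BAX rose in both treated A549 libraries and fell in both treated SUM159 libraries, and PMAIP1 did the reverse. The value for BCL2 rests on 1 to 17 counts per A549 library and those for BCL2 and BCL2L2 lost their call when single libraries were left out. In the same SUM159 libraries PTPRC and PECAM1 were higher after PF-06873600, and their part in these differences was not tested. The lines also differed in level before treatment, and line cannot be told apart from culture medium, which the labels give as different. No group was large enough for a test of outlying libraries.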

How the results depend on the processing

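Of 515 recomputed log2 fold changes under the alternatives that keep every library, 476 stayed on their side of the threshold with the same direction, 28 lost the call, 5 gained one and 6 took the other sign. Of 858 with 1 library left out, 779 stayed, 54 lost the call, 9 gained one and 16 took the other sign. No value that passed the test as reported took the other sign. The number of members called was 3 rather than 6 for indisulam against untreated with DESeq2, and 1 rather than 2 for palbociclib with only the compared groups in the model. With each library left out in turn it ranged from 3 to 7 for indisulam (3 without indisulam library 1) and from 2 to 4 for the interaction (2 without palbociclib library 1, indisulam library 2 or combination library 1). For palbociclib against untreated, 1310 genes were higher and 1168 lower, against 917 and 594 with DESeq2 and 543 and 406 with only the groups compared, 816 and 656 without palbociclib library 1 and 779 and 522 without palbociclib library 2. TMM changed the larger side of the background elsewhere too. The combination against palbociclib had 5279 genes higher and 4250 lower, and 4542 and 5067 with TMM. Untreated SUM159 against A549 had 7242 and 6365, and 6727 and 6848 with TMM. The difference between the lines had 4466 and 4695, and 4742 and 4380 with TMM.

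Sign changes were these, in log2 units. For BCL2L2 the combination against untreated gave -0.079 with TMM and -0.0315 with DESeq2, and -0.0398 to 0.0518 with libraries left out. For BCL2L1 the combination against palbociclib gave -0.0684 with TMM and -0.0212 with DESeq2, and untreated SUM159 against A549 -0.0584 and -0.0407. With libraries left out, palbociclib against untreated ranged from -0.181 to 0.0761 for BAX and from -0.479 to 0.151 for BBC3, indisulam against untreated from -0.143 to 0.0841 for PMAIP1, and the combination against palbociclib from -0.0645 to 0.0131 for MCL1. The interaction ranged from -0.13 to 0.0054 for BCL2L2, from -0.106 to 0.126 for BAK1 and from -0.328 to 0.301 for BBC3. The cause of these changes was not tested. Places in the order per kilobase moved with the choice of transcript length.

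With the replicate number as a replicate block, 3 calls were lost: BAK1 for the combination against palbociclib (log2 fold change 0.28), MCL1 for the interaction (-0.22) and BAX between the untreated lines (-0.16). Deviations of libraries with the same number correlated between -0.217 and 0.166 across comparisons. Such correlations cannot tell whether these libraries share more than the number, and this was not tested. The block with crossed palbociclib numbers, tried because of the correlation of -0.217, called 2 members for palbociclib against untreated, 6 for the combination against palbociclib and 4 for the interaction, the same numbers as without it. BCL2 in A549, BCL2A1 in both lines and BBC3 in SUM159 had 67 counts or fewer per library, so their values rest on few reads.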
